A study of Homo sapiens with 30 samples.

Results

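A group of 27 genes was higher in T47D cells after knockdown of NELF-A, of NELF-C and of NELF-E than after a control siRNA, by at least 1.5-fold in each of the 3 knockdowns. The genes were selected on these measured values: a gene-level transcript cluster with 1 symbol entered if its mean over all 15 arrays was at least 3.9 and if each of the 3 knockdown means (3 arrays each) exceeded the control mean by that amount. Of 22011 transcript clusters, 14432 carried 1 symbol and 9216 of those also passed the limit on the mean level. The limits were met by 30 clusters. L1CAM, CLEC3A and SAT1 met them but were left out by name, as were EFNB2, VTCN1, TGFB2 and ANXA1, which did not meet them. Differences of the 27 genes from control in the A, C and E knockdowns are therefore descriptions of how they were chosen, and no test supports them. The siNELF-B arrays entered the choice only through the mean over all arrays. Differences among the 3 knockdowns were not used directly, although the limit set on each knockdown restricts them.

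The study asked which genes and exons change when single subunits of NELF are depleted, and which change in common. T47D is an established line of luminal human breast cancer cells. The cells received siRNA at 10 nM with a lipid reagent, in 5 groups of 3 arrays. The siControl siRNA was directed against luciferase, which these cells lack, and the others against 1 NELF subunit each. These 4 groups are labelled siNELF with the letter of the subunit and are also written as the A, B, C and E knockdowns. Medium was replaced 48 hours after transfection and the cells were harvested 48 hours after that; 1 ug of total RNA was depleted of ribosomal RNA and hybridised to Affymetrix human exon arrays. No genetic change, hormone or drug treatment was listed for any group, and all groups shared the siRNA transfection. The 3 arrays of a group were technical repeats according to the series text, so an SD or a p-value here measures the spread between repeats and not between cultures. Levels are log2 values from the robust multi-array average (RMA), and a difference of 1 is a doubling. In such bulk samples, fewer cells of a type and less RNA per cell cannot be told apart.

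NELF, the negative elongation factor, is a complex of subunits A, B, C or D, and E that binds RNA polymerase II shortly after it has begun transcription and holds it close to the promoter. Release of the paused polymerase by the kinase P-TEFb lets transcription proceed. Pausing is a known feature of genes that respond quickly to signals, such as the immediate early genes FOS and JUNB, and NELF has been described both as a repressor and as a factor that keeps promoters open.

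The transcripts targeted by the siRNA were measured first. NELFCD, which encodes NELF-C, fell by 3.42 in siNELF-C. The median of 15 probe sets for NELFE was 2.61 below control in siNELF-E, from 7.26 to 4.65. For NELFA, the median of 15 probe sets was 6.24 in siControl and 5.63 in siNELF-A, a difference of -0.61. NELFB was not analysed here, so depletion of the target in the siNELF-B arrays was not checked. All 10 luminal markers measured, among them ESR1, GATA3, FOXA1 and KRT8, had control means of at least 3.9 (4.87 to 12.33). None of 5 endothelial and none of 4 leukocyte markers measured reached that level, while 3 of 3 basal and 3 of 8 mesenchymal markers did. The mean of the 10 luminal markers ranged from 9.02 to 9.16 on the siControl arrays, from 8.63 to 8.78 for A knockdown, from 8.48 to 9.03 for B, from 8.63 to 8.70 for C and from 9.03 to 9.10 for E. Among 12 interferon-stimulated genes measured, 11 were called lower than siControl in each of the 4 knockdowns. Of all clusters, 2.83%, 4.19%, 5.3% and 4.04% were called lower in the A, B, C and E knockdowns. The list medians were -2.75, -2.65, -2.76 and -2.84 for the A, B, C and E knockdowns. That shift is shared by every comparison with siControl, and its part in the values below was not tested.

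The siNELF-B arrays stood apart from one another. Their interquartile ranges of log2 values were 3.57, 4.02 and 3.12 for replicates 1, 2 and 3, against 3.95 to 4.12 in siControl. SiNELF-B replicate 2 had a mean correlation of 0.9845 with the siControl arrays and of 0.945 with its own group. Over the 9216 clusters with a mean of at least 3.9, the median difference from the control mean was -0.40, -0.01 and -0.84 on replicates 1, 2 and 3. Results that rest on siNELF-B are given with and without these arrays.

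Promoter sequences of 4 of the genes are shown because 3 of them, CYP1A1 and the immediate early genes DUSP1 and JUNB, hold a TATA box close to the start of transcription, whereas BAMBI holds GC boxes and no TATA box. Each is the RefSeq window from 250 bases before to 50 bases after an annotated start in build GRCh38.p14, 5′ to 3′ on the strand of the gene, with TATA boxes (TATAAA) and GC boxes (GGGCGG), searched on both strands, in capitals. They lie at chr15:74725479-74725778 (minus strand, CYP1A1), chr5:172771146-172771445 (minus strand, DUSP1), chr19:12791236-12791535 (plus strand, JUNB) and chr10:28677271-28677570 (plus strand, BAMBI).
CYP1A1: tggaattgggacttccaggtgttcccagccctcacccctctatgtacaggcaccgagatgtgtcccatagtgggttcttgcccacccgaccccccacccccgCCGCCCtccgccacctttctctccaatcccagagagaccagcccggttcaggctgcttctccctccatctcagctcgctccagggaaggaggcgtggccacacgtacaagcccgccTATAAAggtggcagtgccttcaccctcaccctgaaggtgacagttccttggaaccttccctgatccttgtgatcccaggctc
DUSP1: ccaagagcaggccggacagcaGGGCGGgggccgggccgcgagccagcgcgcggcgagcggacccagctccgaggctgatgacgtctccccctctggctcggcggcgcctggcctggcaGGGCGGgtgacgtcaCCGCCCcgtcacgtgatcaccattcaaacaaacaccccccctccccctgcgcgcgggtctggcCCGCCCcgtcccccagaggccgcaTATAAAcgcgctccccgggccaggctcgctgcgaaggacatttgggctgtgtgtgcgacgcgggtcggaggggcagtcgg
JUNB: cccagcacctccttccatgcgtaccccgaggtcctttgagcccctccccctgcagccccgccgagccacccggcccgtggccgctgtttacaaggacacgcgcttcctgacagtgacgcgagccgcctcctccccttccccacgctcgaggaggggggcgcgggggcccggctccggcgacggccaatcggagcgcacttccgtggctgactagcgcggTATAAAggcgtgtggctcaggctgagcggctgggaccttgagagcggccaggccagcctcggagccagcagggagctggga
BAMBI: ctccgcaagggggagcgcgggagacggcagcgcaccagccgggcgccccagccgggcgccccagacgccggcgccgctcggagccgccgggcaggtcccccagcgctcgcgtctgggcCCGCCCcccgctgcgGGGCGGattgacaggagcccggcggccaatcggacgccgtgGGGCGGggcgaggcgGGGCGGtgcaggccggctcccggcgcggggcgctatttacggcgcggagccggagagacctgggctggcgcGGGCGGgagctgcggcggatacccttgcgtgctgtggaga

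Counted from the first base of the window, the TATA box began at base 219 in CYP1A1, 221 in DUSP1 and 220 in JUNB, that is upstream of the start at base 251. BAMBI had 5 GC boxes, DUSP1 had 4, CYP1A1 had 1 and JUNB had none. DUSP1 also held a cyclic AMP response element (TGACGTCA) from base 126 to 133, between GC boxes that it did not overlap. RefSeq windows were found by symbol for 22 of the 27 genes, with 31 windows in all because some genes have several starts. A TATA box occurred in 5 of the 31 windows, of 4 genes (16.1%), against 11.5% of all 35116 windows. The count includes the same SRP14 site in overlapping windows, at bases 4 to 9 and 25 to 30, far upstream of the start. A GC box occurred in 21 windows, of 17 genes (67.7%), against 45.0% of all windows. The CCAAT box occurred in 13 (41.9% against 34.6%), and the AP-1 site TGANTCA in none, against 7.71% of all windows. The G and C share of the members' windows ranged from 40.7% to 81.3% with a median of 64.7%, against a median of 58.7% over all windows. These matches describe letters in a window and were not tested.

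The 27 genes were CPN1, CITED2, FLRT3, ANXA3, RPL35, OR1E1, SRP14, PAM, BAMBI, GPRC5A, KRT80, TUFT1, CALCOCO1, HERPUD2, ARL6IP5, PXN, CD55, CDKN2B, ABAT, CDC42SE2, DUSP1, KRT7, MB21D2, JUNB, CTU1, KCNK7 and CYP1A1, in the order of the smallest of their 3 differences from control. Their median difference was 1.08 in siNELF-A, 1.02 in siNELF-C and 1.00 in siNELF-E, with all 22011 clusters at -0.03, -0.08 and -0.02. The smallest differences lay just inside the limit: 0.587 for CYP1A1 in siNELF-A, 0.587 for KCNK7 in siNELF-E and 0.590 for CTU1 in siNELF-E. Just outside lay HPD at 0.579, TRIM29 at 0.578 and BBLN at 0.578. A further 12 clusters with 1 symbol passed the limit on the differences but had means under 3.9. Among the 9216 clusters, 449 lay at least as far below control in all 3 knockdowns.

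With limma, a cluster counted as called when its p, adjusted by the Benjamini-Hochberg procedure across the 22011 clusters, was below 0.05 and it differed by 1.5-fold or more. On that basis 13 of the 27 were called higher in siNELF-A (0.495% of all clusters), 13 in siNELF-C (0.922%) and 16 in siNELF-E (1.44%). The choice used these contrasts, and the counts are given as a description. They moved with single arrays. With 1 array left out at a time, the count for A knockdown ran from 5 (without siControl replicate 2 or siNELF-A replicate 2) to 20 (without siNELF-B replicate 3). For C knockdown it ran from 10 (without siControl replicate 2 or 3, or siNELF-C replicate 1 or 2) to 23 (without siNELF-B replicate 2). For E knockdown it ran from 6 (without siControl replicate 3, or siNELF-E replicate 1 or 3) to 20 (without siNELF-B replicate 2 or 3). With all arrays, 8 genes were called in all 3, 5 in 2, 8 in 1 and 6 in none. For 22 of the 27, all 9 knockdown arrays lay above all 3 siControl arrays, as they did for 2.37% of all clusters. The exceptions were CPN1, RPL35, OR1E1, SRP14 and KCNK7. Groups of members follow, by what their products do. The siControl mean itself was under 3.9 for FLRT3, OR1E1, SRP14 and CYP1A1, and these 4 passed the limit on the mean level through their knockdown arrays.

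**Figure D1:**
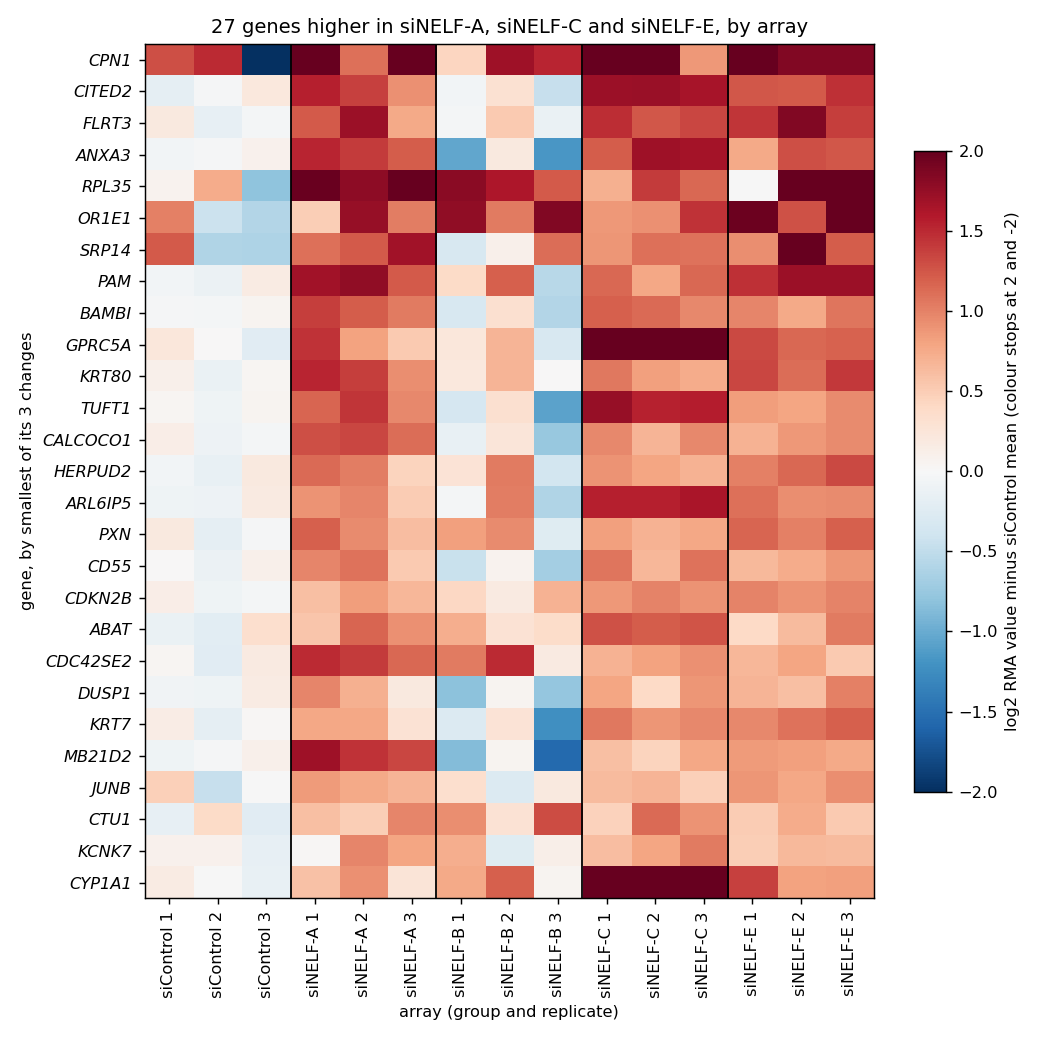
Heat map of the 27 genes (vertical axis, in the order of their smallest difference) on the 15 arrays (horizontal axis), as log2 RMA value minus the siControl mean, with colours limited to the range from -2 to 2. The columns of the A, C and E knockdowns are red for nearly all genes, the siNELF-B columns mix red and blue, and siControl replicate 3 stands out for CPN1.

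Regulators of transcription, signalling and the cell cycle formed the first group. CITED2 (transcript cluster 2976768) encodes a co-regulator that binds the acetyltransferases CBP and p300 without touching DNA. Its level was 6.40, 6.56 and 6.80 on the siControl arrays, 8.14, 7.96 and 7.50 for A knockdown, 6.53, 6.89 and 6.13 for B, 8.29, 8.32 and 8.24 for C and 7.83, 7.81 and 8.05 for E. Every array of the A, C and E knockdowns lay above every control, and the siNELF-B arrays bracketed the controls. The group means were 6.59 ± 0.20 in siControl, 7.87 ± 0.33 in siNELF-A, 8.28 ± 0.04 in siNELF-C and 7.90 ± 0.13 in siNELF-E (SD, n = 3), a 2.43-fold, 3.24-fold and 2.48-fold excess.

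BAMBI (cluster 3240452) is a transmembrane pseudoreceptor that dampens TGF-beta signalling. It stood at 7.34, 7.32 and 7.41 on the siControl arrays, 8.73, 8.56 and 8.40 for A knockdown, 7.04, 7.67 and 6.77 for B, 8.56, 8.48 and 8.32 for C and 8.34, 8.11 and 8.42 for E. The 3 control arrays spanned 0.08, and no array of the A, C or E knockdown came within that span. The differences from control were 1.21 for A, 1.10 for C and 0.93 for E. In siNELF-B, 2 arrays lay below all controls and 1 above.

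CDKN2B (cluster 3201488) encodes the cyclin-dependent kinase inhibitor p15, a known TGF-beta target. Its values were 5.62, 5.41 and 5.45 on the siControl arrays, 6.10, 6.32 and 6.16 for A knockdown, 5.91, 5.67 and 6.19 for B, 6.36, 6.48 and 6.39 for C and 6.48, 6.38 and 6.48 for E. This gene was above all controls on all 12 knockdown arrays, siNELF-B included. Differences from control were 0.70 for A, 0.91 for C and 0.96 for E, and 0.43 ± 0.14 (SE) for B knockdown.

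JUNB (cluster 3821893), a subunit of the AP-1 transcription factor, read 6.79, 5.86 and 6.31 on the siControl arrays, 7.16, 7.08 and 7.002 for A knockdown, 6.65, 6.04 and 6.52 for B, 6.95, 6.99 and 6.80 for C and 7.21, 7.08 and 7.25 for E. The siControl arrays spread over 0.93, and the siNELF-B arrays lay within that span. DUSP1 (cluster 2887309), a phosphatase that switches off MAP kinases, read 6.69, 6.68 and 6.93 on the siControl arrays, 7.74, 7.48 and 6.96 for A knockdown, 5.95, 6.82 and 6.00 for B, 7.55, 7.16 and 7.65 for C and 7.44, 7.37 and 7.78 for E. Its siNELF-A arrays spread widely: replicate 3 exceeded the highest control by little. Differences from control were 0.76 for A, 0.60 for C and 0.86 for E for JUNB and 0.62 for A, 0.69 for C and 0.76 for E for DUSP1. GPRC5A, an orphan receptor induced by retinoic acid, and CYP1A1, an oxidase and classic target of the aryl hydrocarbon receptor, are taken up with the differences among knockdowns below.

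**Figure D2:**
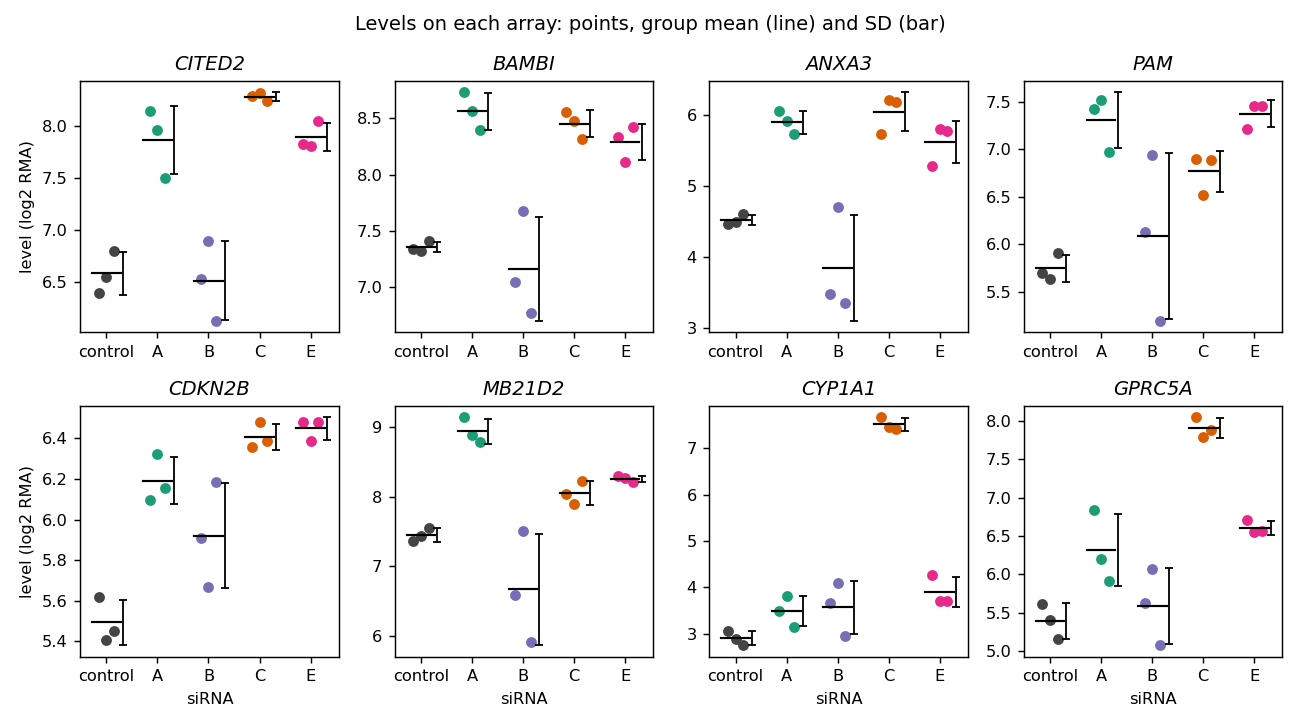
Levels of 8 of the genes (log2 RMA, vertical axes with their own ranges) on each array of the 5 siRNA groups (horizontal axis); points are arrays, lines are group means and bars are SD (n = 3). CDKN2B is above control on every knockdown array, and CYP1A1 and GPRC5A are highest in siNELF-C.

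Genes of adhesion, the cytoskeleton and the cell surface formed the second group. ANXA3 (cluster 2732844), a calcium-dependent phospholipid-binding annexin, was measured at 4.47, 4.49 and 4.60 on the siControl arrays, 6.05, 5.91 and 5.73 for A knockdown, 3.48, 4.71 and 3.36 for B, 5.73, 6.22 and 6.19 for C and 5.28, 5.80 and 5.77 for E. The arrays of the A, C and E knockdowns were all above the controls, which spanned 0.14, while siNELF-B replicates 1 and 3 lay below them and replicate 2 above. FLRT3 (cluster 3898355), a transmembrane protein of cell adhesion and FGF signalling, ranged from 3.35 to 3.71 in siControl, from 4.27 to 5.23 in siNELF-A, from 4.75 to 4.99 in siNELF-C and from 4.89 to 5.36 in siNELF-E. In siNELF-B it ranged from 3.38 to 4.04, mean 3.63 ± 0.36, next to a control mean of 3.51 ± 0.18.

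PXN (cluster 3474372) encodes paxillin, an adaptor of focal adhesions. It read 7.22, 6.84 and 7.004 on the siControl arrays, 8.22, 7.97 and 7.64 for A knockdown, 7.84, 7.98 and 6.78 for B, 7.84, 7.71 and 7.80 for C and 8.19, 8.04 and 8.21 for E, with the A, C and E knockdowns wholly above control. CDC42SE2 (cluster 2828146), a small effector of the GTPase CDC42, read 6.97, 6.71 and 7.12 on the siControl arrays, 8.42, 8.33 and 8.08 for A knockdown, 7.98, 8.43 and 7.12 for B, 7.63, 7.74 and 7.85 for C and 7.59, 7.72 and 7.45 for E. Here siNELF-A and siNELF-B held the highest arrays, with means of 8.28 ± 0.18 and 7.84 ± 0.67 (SD, n = 3), and siNELF-E a mean of 7.59 ± 0.14. All 3 siNELF-B arrays were above the controls, replicate 3 only just.

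KRT80 (cluster 3455134) and KRT7 (cluster 3415320) are keratins, the intermediate filament proteins of epithelia. KRT80 had differences from control of 1.27 for A, 0.87 for C and 1.29 for E, from a control range of 6.15 to 6.39. KRT7 had differences of 0.61 for A, 0.96 for C and 1.08 for E, from a control range of 6.81 to 7.13. Of 29 keratins measured, 2 were called higher in each of these 3 knockdowns, and 1, none and 1 were called lower. Of all clusters, 0.495%, 0.922% and 1.44% were called higher and 2.83%, 5.3% and 4.04% lower. KRT80 was called higher in each, with KRT13 for A, KRT4 for C (1.584) and KRT7 for E. KRT80 and KRT7 were chosen on these contrasts, and KRT4 had a siControl mean of 3.746, under 3.9. KRT23 was called lower in siNELF-A (-2.003), and was at 0.947 for C and -0.795 for E without a call. The keratin medians were 0.23, 0.20 and 0.12. KRT8, the main luminal keratin, differed by 0.54, 0.29 and 0.06 in the A, C and E knockdowns and was not called. KRT13 was called higher in siNELF-A (1.11) and lower in siNELF-E (-0.725).

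CD55 (cluster 2377229), the complement decay-accelerating factor of the cell surface, had control values of 6.23, 6.11 and 6.33 and siNELF-B values of 5.79, 6.30 and 5.55. Its values were 7.20, 7.31 and 6.75 in siNELF-A, 7.29, 6.90 and 7.32 in siNELF-C and 6.87, 6.97 and 7.11 in siNELF-E, all above control. No siNELF-B array of CD55 lay above all controls, and 2 lay below them.

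Proteins of the secretory pathway, membranes and metabolism made up the third group. PAM (cluster 2822215), the enzyme that amidates peptide hormones in secretory granules, read 5.70, 5.64 and 5.91 on the siControl arrays, 7.42, 7.53 and 6.98 for A knockdown, 6.13, 6.94 and 5.20 for B, 6.90, 6.52 and 6.89 for C and 7.21, 7.46 and 7.46 for E. The siNELF-A and siNELF-E arrays were all above the siNELF-C arrays, and siNELF-B spread over 1.74 from below the controls to above the siNELF-C arrays. TUFT1 (cluster 2358993), tuftelin, first known from tooth enamel, read 6.78, 6.66 and 6.79 on the siControl arrays, 7.90, 8.17 and 7.71 for A knockdown, 6.40, 7.06 and 5.67 for B, 8.48, 8.29 and 8.31 for C and 7.57, 7.53 and 7.70 for E. Its siNELF-C arrays were the highest, and those of siNELF-E, 7.53 to 7.70, were the lowest of the 3 knockdowns.

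ARL6IP5 (cluster 2628682), a membrane protein of the endoplasmic reticulum, had means of 7.46 ± 0.16 in siControl, 8.26 ± 0.25 in siNELF-A, 9.04 ± 0.04 in siNELF-C and 8.46 ± 0.10 in siNELF-E (SD, n = 3). HERPUD2 (cluster 3045739), a relative of the endoplasmic reticulum stress protein HERPUD1, had differences of 0.87 for A, 0.80 for C and 1.16 for E. CALCOCO1 (cluster 3456353), known as a coactivator of nuclear receptors and as an autophagy receptor, had differences of 1.25 for A, 0.87 for C and 0.83 for E. Its 3 siControl arrays ranged from 5.48 to 5.71, and its 3 siNELF-A arrays from 6.68 to 6.91. ABAT (cluster 3647421), the transaminase that breaks down the transmitter GABA, had differences of 0.88 for A, 1.25 for C and 0.69 for E. CPN1 (cluster 3303227), the catalytic chain of carboxypeptidase N, read 5.25, 5.45 and 1.16 on the siControl arrays, 5.95, 5.05 and 6.21 for A knockdown, 4.38, 5.65 and 5.48 for B, 6.36, 5.94 and 4.83 for C and 5.96, 5.80 and 5.81 for E. Its difference rested on siControl replicate 3: the other control arrays lay within the ranges of siNELF-A and siNELF-C and below that of siNELF-E, and without that array CPN1 no longer met the limit. SRP14 (cluster 3619165), a subunit of the signal recognition particle, read 4.96, 3.12 and 3.10 in siControl, so that replicate 1 lay within the ranges of siNELF-A (4.83 to 5.40) and siNELF-E (4.66 to 6.13) and above that of siNELF-C (4.62 to 4.82).

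The remaining genes differ in kind. MB21D2 (cluster 2711034), which carries a Mab-21 domain, read 7.36, 7.43 and 7.56 on the siControl arrays, 9.15, 8.89 and 8.79 for A knockdown, 6.59, 7.51 and 5.90 for B, 8.05, 7.89 and 8.23 for C and 8.30, 8.27 and 8.21 for E. The siNELF-A arrays were the highest, and siNELF-B replicates 1 and 3 lay below every control. CTU1 (cluster 3868905), an enzyme that modifies transfer RNA, differed by 0.69 for A, 0.83 for C and 0.59 for E, and by 0.84 ± 0.26 (SE) for B knockdown. KCNK7 (cluster 3377737), of the two-pore potassium channel family, differed by 0.60 for A, 0.81 for C and 0.59 for E; siNELF-A replicate 1, at 4.13, lay within the control range of 3.93 to 4.19. OR1E1 (cluster 3741374), an olfactory receptor with close relatives, read 4.15, 2.71 and 2.55 in siControl, where replicate 1 overlapped the siNELF-A and siNELF-C arrays; its differences were 1.08 for A, 1.08 for C and 1.79 for E. RPL35 (cluster 3225196), a protein of the large ribosomal subunit with processed copies in the genome, read 4.42, 5.08 and 3.54 on the siControl arrays, 6.32, 6.14 and 6.37 for A knockdown, 6.16, 5.97 and 5.57 for B, 5.06, 5.74 and 5.49 for C and 4.34, 6.75 and 6.39 for E. SiNELF-E replicate 1 lay below 2 of the 3 controls. For OR1E1 and RPL35, signal from near-identical copies cannot be told apart.

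Whether the 3 knockdowns differed among themselves was not fixed by the choice, and was tested with limma over all 22011 clusters. The choice did restrict these differences, since a gene under the limit in any 1 of the 3 was left out. Counts and medians of the differences are therefore only partly apart from it. Between siNELF-E and siNELF-A, none of the 27 was called (4.05% of all clusters were, either way), and 2 had an unadjusted p below 0.05, both lower in siNELF-E. These were CDC42SE2 (-0.69, 95% interval -1.24 to -0.14) and MB21D2 (-0.68, -1.31 to -0.06). GPRC5A was called between siNELF-C and siNELF-A, where 2.87% of all clusters were called, and between siNELF-E and siNELF-C, where 5.18% were. CYP1A1 passed the same thresholds in both pairs, but it entered the set through its siNELF-C arrays, so its differences are a description and are not counted as test results. The median difference of the 27 was 0.07 for siNELF-E minus siNELF-A, 0.07 for siNELF-C minus siNELF-A and 0.04 for siNELF-E minus siNELF-C. By mean, siNELF-A was the highest of the 3 for 5 genes, siNELF-C for 10 and siNELF-E for 12.

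GPRC5A (cluster 3405587) read 5.62, 5.40 and 5.16 on the siControl arrays, 6.84, 6.20 and 5.92 for A knockdown, 5.63, 6.06 and 5.07 for B, 8.05, 7.79 and 7.88 for C and 6.71, 6.55 and 6.57 for E. The siNELF-C arrays lay above all others, with a mean of 7.91 ± 0.13 (SD, n = 3) next to 6.32 ± 0.47 in siNELF-A and 6.61 ± 0.09 in siNELF-E. SiNELF-C exceeded siNELF-A by 1.59 ± 0.26 (SE; limma adjusted p = 0.00518), which is 3-fold. SiNELF-E was lower than siNELF-C by 2.46-fold (log2 difference -1.30 ± 0.26, limma adjusted p = 0.0102). The latter call was lost without siNELF-C replicate 1, where the difference was -1.23 with a limma adjusted p of 0.052. SiNELF-E and siNELF-A differed by 0.29, with an interval of -0.26 to 0.84. Each of its 5 exon-level probe sets was higher in siNELF-C than in siNELF-A and siNELF-E, with differences from control of 1.40 to 2.77 in siNELF-C, 0.65 to 1.12 in siNELF-A and 0.03 to 1.43 in siNELF-E.

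CYP1A1 (cluster 3633081) read 3.06, 2.89 and 2.75 on the siControl arrays, 3.49, 3.81 and 3.15 for A knockdown, 3.66, 4.09 and 2.96 for B, 7.68, 7.46 and 7.43 for C and 4.26, 3.71 and 3.71 for E. Only the siNELF-C mean was above 3.9, so the gene passed the limit on the mean level through those arrays, and its difference between siNELF-C and the other groups is given with no p. The siNELF-C mean was 7.52, which is 3.62 above the limit of 3.9. SiNELF-C exceeded siControl by 4.63, siNELF-A by 4.04 and siNELF-E by 3.63. These differences are taken from levels under 3.9, where the arrays give no detection call, so their size is uncertain. The means of siControl, siNELF-A, siNELF-B and siNELF-E were all under 3.9, so differences among these groups are not read as changes. This includes the differences from control in siNELF-A and siNELF-E by which the gene met the limits. All 11 probe sets were higher in siNELF-C than in siNELF-A and siNELF-E, with differences from control of 2.23 to 6.17 in siNELF-C, -0.56 to 1.27 in siNELF-A and -0.13 to 1.85 in siNELF-E.

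Other members had intervals that leave out 0 without reaching the adjusted threshold. MB21D2 was -0.89 in siNELF-C relative to siNELF-A (interval -1.51 to -0.26, limma adjusted p = 0.137), and ARL6IP5 was 0.78 (interval 0.14 to 1.43, limma adjusted p = 0.207). TUFT1 was -0.76 in siNELF-E relative to siNELF-C (interval -1.32 to -0.20, limma adjusted p = 0.118), and ABAT was -0.56 (interval -1.01 to -0.10). For CITED2, BAMBI and CDKN2B the intervals for siNELF-E minus siNELF-A were -0.41 to 0.47, -0.70 to 0.15 and -0.04 to 0.55. Without siNELF-B replicate 2 or without replicate 3, which enter these comparisons through the shared estimate of spread, MB21D2 and CDC42SE2 were called between siNELF-E and siNELF-A, MB21D2 and ARL6IP5 between siNELF-C and siNELF-A, and TUFT1 between siNELF-E and siNELF-C. The share of all clusters called rose in these pairs too, to 7.50%, 7.07% and 9.94% without replicate 2 and to 8.40%, 8.01% and 11.2% without replicate 3. An adjusted p that misses the threshold does not show that the knockdowns act alike.

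**Figure D3:**
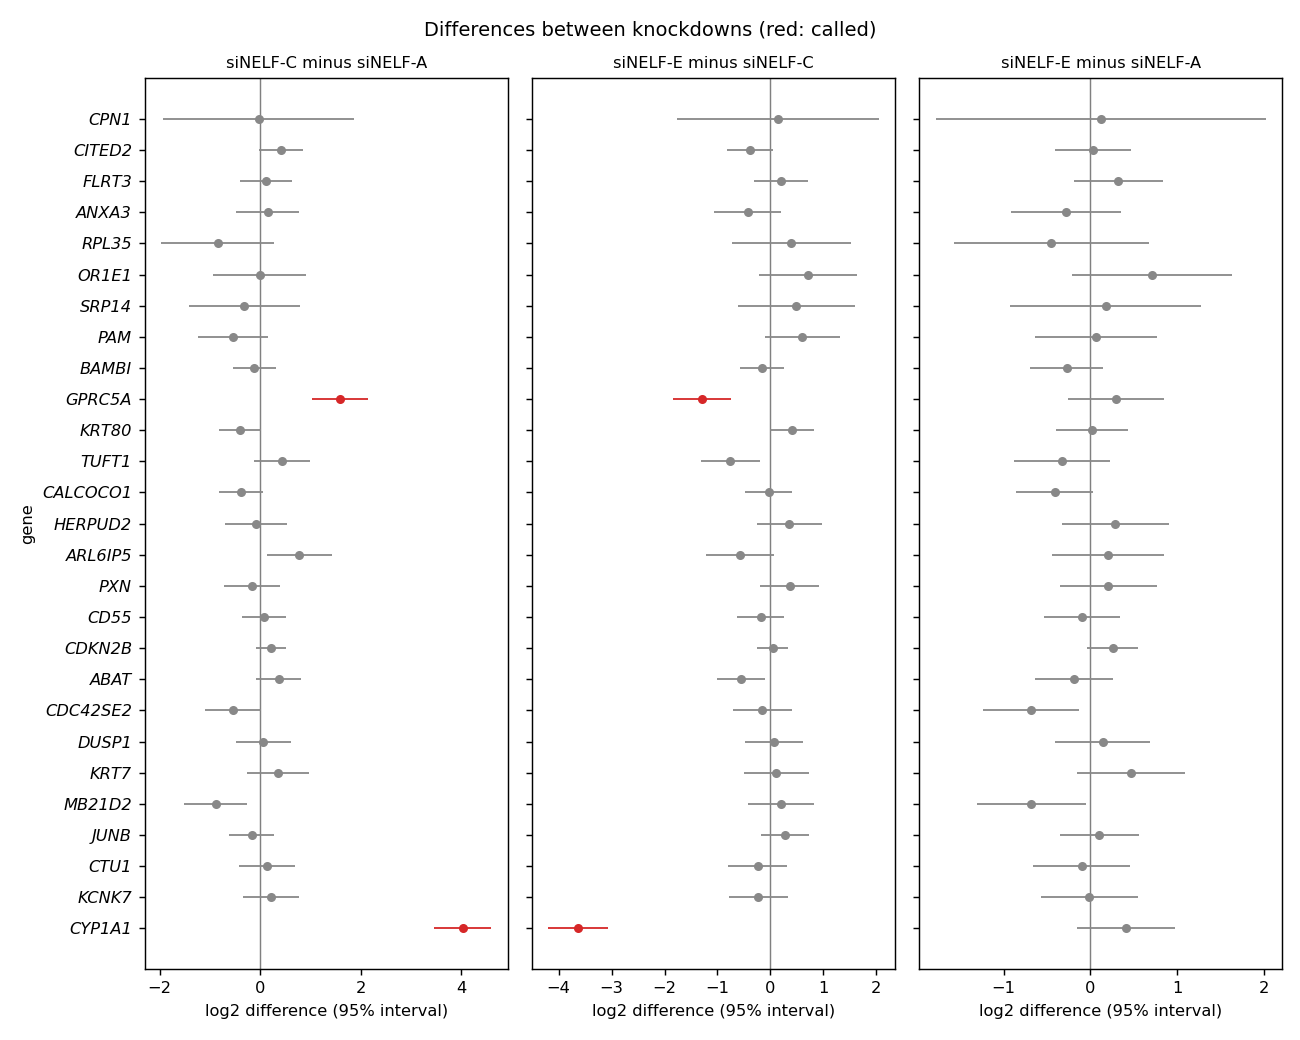
Log2 differences between pairs of knockdowns (horizontal axes, each panel with its own range) with 95% intervals from limma for the 27 genes (vertical axis); red marks differences past the thresholds. GPRC5A is red for siNELF-C minus siNELF-A (1.59) and siNELF-E minus siNELF-C (-1.30), and no gene is red for siNELF-E minus siNELF-A. CYP1A1 is red in the same panels (4.04 and -3.63), but it entered the set through its siNELF-C arrays and is shown as a description.

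In siNELF-B, compared with the same siControl arrays that the choice used, none of the 27 genes was called higher (0.204% of all clusters were) and none lower (4.19% were) by limma. The choice favoured genes with low values on these siControl arrays, which can also raise their siNELF-B differences. The signs, the median and the p-values below are therefore only partly apart from the choice. An unadjusted p below 0.05 was found for 9, of which 7 were higher and 2 lower. The 7 include OR1E1 and CYP1A1, which passed the limit on the mean through knockdown arrays and are a description. The difference was positive for 18 and negative for 9, with a median of 0.20, while the median was -0.14 over all clusters and -0.42 over the 9216. These signs and the median of 0.20 include FLRT3, OR1E1, SRP14 and CYP1A1, which had siControl means under 3.9, and are a description too. The largest differences were 1.55 ± 0.43 (SE) for OR1E1, 1.55 ± 0.52 for RPL35 and 0.91 ± 0.26 for CDC42SE2, with limma adjusted p of 0.0548, 0.0826 and 0.0575. The RPL35 value is that of 1 exon-level probe set. Its other 5 probe sets were lower than control in siNELF-B, by differences of -0.849 to -0.445. OR1E1, with a siControl mean of 3.14, passed the limit on the mean through knockdown arrays, so its p and later calls are a description. The lowest differences were -0.79 ± 0.29 for MB21D2 and -0.67 ± 0.29 for ANXA3, with limma adjusted p of 0.103 and 0.15. CITED2 and BAMBI, at -0.07 and -0.19, had intervals of -0.51 to 0.37 and -0.61 to 0.23. FLRT3 had siControl and siNELF-B means under 3.9, and its difference is not read.

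The SD was larger in siNELF-B than in any other group for 19 of the 27. On replicate 1, 13 genes lay above all 3 controls and 8 below, on replicate 2 these were 19 and 1, and on replicate 3 they were 8 and 14. The share of all clusters beyond the controls was not counted for these arrays, so the counts are no result about the 27. The median of the 27 relative to the control mean was 0.23, 0.32 and -0.24 on the 3 replicates. Over the 9216 clusters it was -0.40, -0.01 and -0.84. RPL35, OR1E1, CDKN2B and CDC42SE2 were above all controls on all 3 siNELF-B arrays, again without a share of all clusters. For RPL35 this holds for the 1 probe set that equals its gene-level value. Without siNELF-B replicate 2, 3 genes were called higher (CDC42SE2, OR1E1 and CTU1) and 5 lower (TUFT1, MB21D2, ANXA3, DUSP1 and KRT7), where 3.52% of all clusters were called higher and 30.3% lower. Without replicate 3, 2 were called higher (CDC42SE2 and PXN), with 0.186% of all clusters. Without siControl replicate 1, OR1E1 was called higher (0.0227% of all clusters), and without siNELF-E replicate 1, RPL35 was (0.0863%). With siNELF-B replicates 2 and 3 both left out, so that replicate 1 alone stood for siNELF-B and was assumed to vary like the other groups, CDC42SE2, PXN and CTU1 were called higher and MB21D2 and ANXA3 lower, with 1.37% and 17.8% of all clusters. The scaling of the arrays mattered as well: 5 genes were called higher after quantile normalization, 3 after centring on the median and 7 after centring on the 75th percentile, where 0.959%, 0.613% and 1.78% of all clusters were. The 3 and the 7 include CYP1A1 and OR1E1, which had siControl means under 3.9 and passed the limit on the mean through knockdown arrays. Their calls are a description.

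The exon-level values show which parts of each gene carried the gene-level difference. The 27 genes had 296 probe sets, of which 167 (56.4%) were at least 1.5-fold above control in all 3 knockdowns, against 1.83% of all 261273 probe sets with 1 symbol. The difference was positive in all 3 for 261 (88.2%). These come from the contrasts used in the choice. In 14 genes a majority of the probe sets passed: all 7 in BAMBI, 9 of 10 in CITED2, 6 of 7 in FLRT3, 11 of 14 in ANXA3, 21 of 32 in PAM, 17 of 21 in TUFT1, 12 of 17 in KRT80, 8 of 10 in ARL6IP5 and 4 of 5 in GPRC5A among them. For TUFT1 the median over its 21 probe sets was 1.17, 1.66 and 0.86 in the A, C and E knockdowns, close to its gene-level differences of 1.18 for A, 1.62 for C and 0.86 for E. Fewer passed in KCNK7 (2 of 12), CTU1 (1 of 8), MB21D2 (1 of 4), CYP1A1 (3 of 11), DUSP1 (2 of 7) and CDKN2B (4 of 11). KRT7 (7 of 16), PXN (13 of 27) and CALCOCO1 (11 of 22) also fell short of a majority.

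For 5 genes the gene-level value equalled that of 1 single probe set within 0.01 on every array: CPN1, RPL35, OR1E1, SRP14 and ABAT. Such clusters made up 1.62% of the 9020 clusters that passed the limit on the mean and had exon-level probe sets. In RPL35 that was probe set 3225212, with a mean of 4.35 in siControl and of 6.28, 5.90, 5.43 and 5.83 in the A, B, C and E knockdowns. The other 5 probe sets of RPL35 had control means of 8.65 to 12.12 and differed from control by -0.22 to 0.36 in the A, C and E knockdowns. For B knockdown they differed by -0.849 to -0.445, against 1.55 for probe set 3225212. In SRP14 it was probe set 3619181. The other 5 probe sets there had control means of 5.62 to 10.54 and median differences of -0.001 in both siNELF-A and siNELF-C and of 0.41 in siNELF-E. CPN1 and OR1E1 had 1 other probe set each, with control means of 1.82 and 1.39, and ABAT had none. For RPL35 and SRP14 the values therefore describe 1 exon region and not the transcript as a whole.

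Exon usage compares each probe set with the rest of its gene, here averaged over the 3 knockdowns, and could be examined with limma's diffSplice in 24 of the 27 genes with 277 probe sets. A probe set was called in 1 gene, RPL35, again probe set 3225212, 1.49 above the rest of the gene. Over all genes 2.56% had a called probe set, and 0.213% of all probe sets were called. This is the probe set through which the gene was chosen, and it is a description. The call was lost without siControl replicate 1 and without siControl replicate 3.

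**Figure D4:**
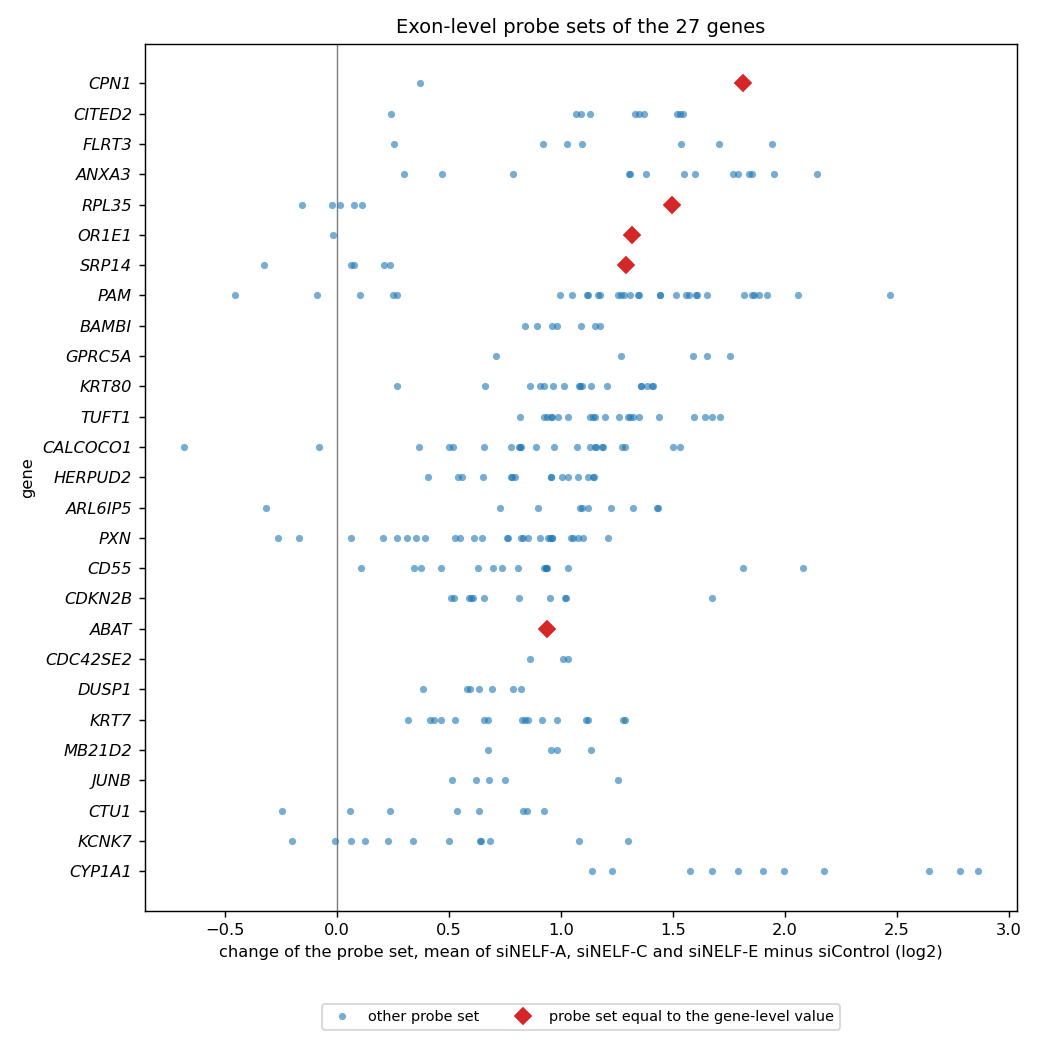
Difference from siControl of each exon-level probe set (horizontal axis, log2, mean of the A, C and E knockdowns) for the 27 genes (vertical axis); red diamonds mark the 5 probe sets that equal the gene-level value. The other probe sets of RPL35 and SRP14 lie near 0, while all 7 of BAMBI and all 21 of TUFT1 lie to the right of it.

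Other genes of the members' pathways were taken from lists. For this list and those that follow, the shares of all clusters called higher were 0.495%, 0.922% and 1.44% in the A, C and E knockdowns. The shares called lower were 2.83%, 5.3% and 4.04%. For B knockdown they were 0.204% higher and 4.19% lower. List counts near these shares are not read as a result for a list. Among 18 TGF-beta ligands, receptors and response genes measured, 2 were called higher and 1 lower for A knockdown, 5 and none for C and 1 and 1 for E, with medians of 0.02, 0.32 and 0.17. BAMBI was the one called higher in all 3, and it was chosen on these contrasts. CCN1, a matrix protein, was higher in siNELF-A (0.79) and siNELF-C (0.80). ID1, an inhibitor of helix-loop-helix factors, was lower in siNELF-A (-1.52) and siNELF-E (-1.32) and higher in siNELF-C (0.92). SMAD3 (0.73) and ID3 (1.12) were called in siNELF-C. The direct target SMAD7 was not called in any of the 3, at 0.35, 0.00 and 0.16. No list gene was called in siNELF-B.

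Among 10 cell cycle inhibitors measured, 2 were called higher in each of the 3 knockdowns. CDKN2B was among them each time, and it was chosen on these contrasts. CDKN1A, which encodes p21, was higher in siNELF-C (0.87) and siNELF-E (0.91) and stood at 0.14 in siNELF-A. CDKN2A, the neighbour of CDKN2B on the chromosome, differed by -0.04, -0.06 and 0.02 and was not called. GADD45B was higher in siNELF-A (0.75). TOB1, an antiproliferative gene, was called lower in siNELF-A (-0.82) and siNELF-C (-0.61).

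Among 17 immediate early genes measured, none was called in siNELF-A, 1 higher and 1 lower in siNELF-C, and 4 higher and 1 lower in siNELF-E, with medians of 0.09, 0.06 and 0.21. The 4 in siNELF-E were JUNB, itself chosen on this contrast, JUND (0.76), KLF4 (0.96) and NR4A1 (0.78), and IER3 was lower (-0.79). FOSL1 was higher in siNELF-C (1.05) and was the 1 gene of the list called in siNELF-B (0.90). FOS and EGR1 were called in none of the 3, with differences of -0.03, 0.02 and -0.29 for FOS and -0.04, -0.14 and -0.15 for EGR1.

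Among 15 genes of the retinoid, thyroid hormone and xenobiotic responses measured, none was called higher for A knockdown, 2 were for C and 1 for E. CYP1A1, a member, was one of them in siNELF-C and the one in siNELF-E. It entered the set through its siNELF-C arrays, and its siControl and siNELF-E means were under 3.9. Its calls are therefore a description and not a result for the list. ALDH1A3, a retinaldehyde dehydrogenase, was the other in siNELF-C (1.51). CYP1B1, a further target of the aryl hydrocarbon receptor, was called lower in siNELF-A (-1.02) and was at -0.41 for C knockdown and -0.87 for E. Of 53 ribosomal protein genes measured, the list to which RPL35 belongs, none was called higher in siNELF-A, 1 in siNELF-C and none in siNELF-E, and none, 1 and 1 were called lower.

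Which genes met the limits also depended on single arrays. Leaving out each of the 15 arrays in turn left between 26 and 39 genes past the limits. Of the 27, 17 remained whichever array was left out. CPN1, CTU1, MB21D2, CDC42SE2, CYP1A1, DUSP1, JUNB, KRT7, KCNK7 and ABAT were lost at least once, with siControl replicate 2 removing 5 of them (CDC42SE2, CYP1A1, DUSP1, JUNB and KRT7). CITED2, FLRT3, ANXA3, PAM, BAMBI, GPRC5A, KRT80, TUFT1, CALCOCO1, HERPUD2, ARL6IP5, PXN, CD55 and CDKN2B were among those that remained. Other scalings admitted more genes, 63 after quantile normalization, 50 after centring on the median and 98 after centring on the 75th percentile, and all 27 remained in each.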

How the data were processed

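RNA of T47D cells was measured on 15 exon arrays. The deposited values were log2 RMA values made by the authors with ArrayAssist for core exons on hg18, per the labels (the sources used here give no version). They were used as they stand. Each array had a gene-level column of 22011 transcript clusters and an exon-level column of 287329 probe sets, and no 2 columns were identical. Symbols came from the platform annotation, updated through RefSeq (GRCh38.p14), which gave names and promoter windows. Of the clusters, 14432 clusters carried 1 symbol, 2408 several and 5171 were not listed.

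In R 4.3.3, limma 3.58.1 (with version 1.17.8 of the package data.table) fitted a mean for each of the 5 groups to all arrays with lmFit and eBayes. Calls needed an adjusted p below 0.05 and a difference of 1.5-fold. Exon usage was tested with diffSplice on genes with at least 3 probe sets above the 25th percentile of mean level. The code was tested on simulated data. The number of arrays limits the precision. Alternatives were other scalings, leaving out arrays, array weights, a filter on low values and a replicate block.

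All 27 members are named, by rule. Members, lists and tests were chosen with earlier results of these data known. For OR1E1, GPRC5A, KRT80, KRT7 and CALCOCO1 no promoter window was matched.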

Additional observations from a re-analysis of the deposited data

Results flagged for a closer look

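GPRC5A, highest in siNELF-C, differed between knockdowns by the test of the difference. It differed by 1.587 for siNELF-C minus siNELF-A and by -1.297 for siNELF-E minus siNELF-C (limma). For CYP1A1 the differences were 4.039 for siNELF-C minus siNELF-A and -3.628 for siNELF-E minus siNELF-C. They are a description, since the gene had passed the limit on the mean level through its siNELF-C arrays and its levels in the other groups were under 3.9. No explanation was tested for either.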

How the results depend on the processing

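The count of genes past the limits was 63 after quantile normalization, 50 with arrays centred on the median and 98 with arrays centred on the 75th percentile. Under the same 3 scalings, the genes called higher in siNELF-B numbered 5, 3 and 7 (main 0) and those with a called probe set 2 in each (main 1). The 3 and the 7 include CYP1A1 and OR1E1. Of all clusters, 0.959%, 0.613% and 1.78% were called higher in siNELF-B. Genes called between siNELF-E and siNELF-A numbered 2, 1 and 2 (main 0), where 7.12%, 6.58% and 7.63% of all clusters were called. Those between siNELF-C and siNELF-A numbered 4 after quantile normalization and 4 on the 75th percentile, and those between siNELF-E and siNELF-C 5 and 5 (main 2 each, CYP1A1 included throughout). Of all clusters, 6.33% and 6.34% were called between siNELF-C and siNELF-A, and 7.81% and 8.18% between siNELF-E and siNELF-C. With siNELF-B replicates 2 and 3 left out, siNELF-B held 1 array, and no counts are listed here for that fit. With array weights, whose estimation stopped before its convergence tolerance was reached, the counts were 8 in siNELF-B (with 3 lower) and 2, 4 and 4 in those 3 pairs. The 8 include CYP1A1 and OR1E1. With these weights 4.68% of all clusters were called higher and 23.5% lower in siNELF-B, and 10.1%, 10.3% and 13.3% either way in the 3 pairs. Leaving out clusters of low mean gave 3 in siNELF-B (0.492% of the clusters kept), and no filter on probe sets gave 3 in exon usage. Leaving out single arrays gave 0 to 3 in siNELF-B, 0 to 2 for siNELF-E against siNELF-A, 2 to 4 for siNELF-C against siNELF-A, 1 to 3 for siNELF-E against siNELF-C and 0 to 3 for exon usage; the low values for the last came without siControl replicate 1 or 3, and most high values without siNELF-B replicate 2 or 3. The cause of these changes was not tested. Shares of all clusters called without siNELF-B replicate 2 or 3 are given with the results above. For exon usage the share of all genes was counted in the main setting only. Under the settings counted here, MB21D2 and CDC42SE2 were the genes gained between siNELF-E and siNELF-A. ARL6IP5 and MB21D2 were gained between siNELF-C and siNELF-A, and TUFT1, ARL6IP5 and CITED2 between siNELF-E and siNELF-C.

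GPRC5A for siNELF-C minus siNELF-A was called under all 23 alternatives (limma adjusted p 6.85e-05 to 0.0336). GPRC5A for siNELF-E minus siNELF-C was called under 22 of 23; without siNELF-C replicate 1 it was -1.225 (limma adjusted p = 0.052).

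Replicate numbers did not pair the arrays: residuals of same-numbered arrays correlated at -0.297 to 0.203 over 30 pairs. With the number as a replicate block, the counts were 0 in siNELF-B, 0, 2 and 2 between knockdowns and 1 for exon usage, the same as without it.

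The arrays were technical repeats, 3 in a group, so differences between cultures were not measured. RMA values carry no detection call, and levels under 3.9 are read with caution. Controls were shared by every comparison with siControl.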
